A study of Homo sapiens with 8 samples.

Results

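The genes described here encode cyclins, kinases, a phosphatase and proteins of a ubiquitin ligase pathway that act in entry into and exit from mitosis. They are CCNA2, CCNB1, CCNB2, CDK1, PLK1, CDC20, UBE2C, PTTG1, AURKA and CDC25B, chosen by symbol, and all 10 had a row among the 13471 genes of the gene table. RNA was sequenced with and without immunoprecipitation (IP) of hnRNP U (SAF-A), an abundant nuclear protein that binds RNA and DNA. The cells were hTERT-RPE1, a line of human retinal pigment epithelium immortalized with telomerase. Interphase cells spent 24 h in 2 mM thymidine, a block of DNA replication. Mitotic cells had the same thymidine treatment, 6 h without thymidine and then a night in S-Trityl-L-cysteine (STLC), which blocks the mitotic kinesin Eg5. Each phase was measured without IP and after IP with an anti-hnRNP U antibody (3G6), in 2 libraries per group. No control-antibody IP was analysed here, and RNA bound through hnRNP U and RNA carried along with the beads cannot be told apart. How pure the mitotic cultures were is not stated, and in such bulk RNA a larger share of cells with a transcript and more of it per cell cannot be told apart.

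Cyclins are the activating subunits of cyclin-dependent kinases. Cyclin A2 and the B cyclins activate CDK1, the kinase that starts mitosis, after phosphatases of the CDC25 family have removed its inhibitory phosphates. The kinases PLK1 and Aurora A promote CDK1 activation and build the spindle poles. The anaphase-promoting complex (APC/C), a ubiquitin ligase activated by CDC20 and supplied with ubiquitin by the enzyme UBE2C, then marks the B cyclins and securin (PTTG1) for destruction, which lets the sister chromatids part. RNAs of these genes are known to build up in G2 phase, under promoters that often carry CCAAT boxes and a cell cycle genes homology region (CHR). An arrest with stalled replication lies before G2 phase and an arrest in mitosis lies after it.

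The promoters of 8 of the 10 genes were found in the RefSeq table of promoter windows (build GRCh38.p14, 250 bases before to 50 bases after a transcript start), while AURKA and UBE2C were not analysed in this way. Letters searched on both strands were TTTGAA and TTTAAA, the usual forms of the CHR, and CCAAT. Sequences are shown for 6 genes, CCNA2 with a CCAAT alone and 5 that carry both kinds of letters close to their first listed start, so that their spacing can be compared. They cover the 130 bases before the first listed start, read 5′ to 3′ on the gene's strand, and capitals mark matches to these letters.
CCNB2, chr15:59105016-59105145, plus strand: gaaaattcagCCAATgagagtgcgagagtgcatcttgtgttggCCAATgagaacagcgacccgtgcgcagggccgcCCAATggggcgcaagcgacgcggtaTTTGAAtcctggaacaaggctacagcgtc
CCNB1, chr5:69167020-69167149, plus strand: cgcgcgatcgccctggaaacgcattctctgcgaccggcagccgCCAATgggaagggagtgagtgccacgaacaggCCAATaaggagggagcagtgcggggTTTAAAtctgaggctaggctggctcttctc
PTTG1, chr5:160421725-160421854, plus strand: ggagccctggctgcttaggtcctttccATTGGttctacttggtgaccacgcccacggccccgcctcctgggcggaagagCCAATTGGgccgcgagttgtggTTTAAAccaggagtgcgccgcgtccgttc
PLK1, chr16:23678759-23678888, plus strand: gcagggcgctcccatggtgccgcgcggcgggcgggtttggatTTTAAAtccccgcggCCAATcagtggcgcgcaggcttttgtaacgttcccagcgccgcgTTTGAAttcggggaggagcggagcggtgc
CDC20, chr1:43358851-43358980, plus strand: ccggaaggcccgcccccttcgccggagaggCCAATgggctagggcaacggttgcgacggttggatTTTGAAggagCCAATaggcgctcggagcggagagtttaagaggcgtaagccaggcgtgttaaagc
CCNA2, chr4:121823884-121824013, minus strand: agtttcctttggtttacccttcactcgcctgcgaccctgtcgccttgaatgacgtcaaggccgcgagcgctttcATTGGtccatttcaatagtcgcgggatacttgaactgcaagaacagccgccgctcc
TTTGAA or TTTAAA lay 30 bases before the start of CCNB1 and 29 bases before the starts of CCNB2, PTTG1 and PLK1, and 65 bases before that of CDC20. In the sequence of CCNB2 the CCAAT boxes began 120, 87 and 54 bases before the start. PLK1 also had TTTAAA 88 bases before its start. The CCAAT of PTTG1 that begins 51 bases before the start overlaps a match on the other strand. CCNA2 showed a CCAAT on the other strand and neither TTTGAA nor TTTAAA in its window. Other forms of the CHR were not searched for, so this does not show that CCNA2 lacks one. Counting all listed starts, 7 of the 8 genes had TTTGAA or TTTAAA in a window, against 27.9% of the 27305 genes of that table. All 8 had CCAAT (39.7% of that table), and 6 had both kinds in the same window (11.2%). For CDC25B, which has 4 listed starts, no window held both. CDK1, with 2 listed starts, also had the E2F-type letters TTTCGCGC, and 1.4% of genes of the table had TTTCGCGC or TTTGGCGC. A match describes these letters and is not evidence of a bound site.

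Values are FPKM, fragments per kilobase of transcript scaled to the mapped total, which allow levels of different genes to be compared per length. Each library is scaled to its own total, so higher, lower, enriched and depleted refer here to relative levels within libraries. The amounts of RNA recovered by the IP are unknown. Fragment totals are unknown and no counting interval is given. Steps in the lowest values, read from 165 genes in the first no-IP interphase library and from 10 to 20 genes in the others, put the libraries at 0.639 to 1.19 times the depth of that library, and both ends were mitotic IP libraries. Replicates correlated at Pearson's r of 0.989 to 0.995 across genes on the log2 scale. No label says that replicates were separate cultures, so p-values measure only the spread between these libraries, which may be technical. Of 11 markers of retinal pigment epithelium, MITF (7.06 to 33.2 FPKM), OTX2 (3.33 to 22.2), KRT8 (19.0 to 58.9) and KRT18 (18.5 to 79.2) were present and PMEL was at most 0.144 FPKM. RPE65, BEST1, RLBP1, TYR, TYRP1 and DCT, markers of the differentiated epithelium, were not listed among the genes measured, and neither were the markers of leukocytes, endothelium and photoreceptors. The reason is not given. CCNA2 shares its interval in the table with the neighbouring gene EXOSC9. The interval of PLK1 runs 23133 bases past the annotated gene into ERN2. Genes or pseudogenes named as copies, whose sequence identity was not measured, are annotated for UBE2C (4), PTTG1 (3), AURKA (2), CCNB2 (1) and CDC20 (1), and how reads shared with such copies were assigned is not stated, so these values are uncertain to that extent.

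All 10 RNAs were more abundant in mitosis than in thymidine-held interphase without IP, where 51.7% of all genes in the table were called, 26.2% higher and 25.5% lower. Calls here and below are from limma on log2(FPKM + 1), with the Benjamini-Hochberg adjusted p over all 13471 genes below 0.05. Log2 fold changes are differences of mean log2(FPKM + 1). Their median over the 10 genes was 1.62, against 0.00 over all genes. The libraries of the phases did not overlap for any of the 10, nor for 78.9% of all genes. Positions given below are those of the annotated genes in GENCODE 29 (build GRCh38), on the plus strand unless stated.

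**Figure D1:**
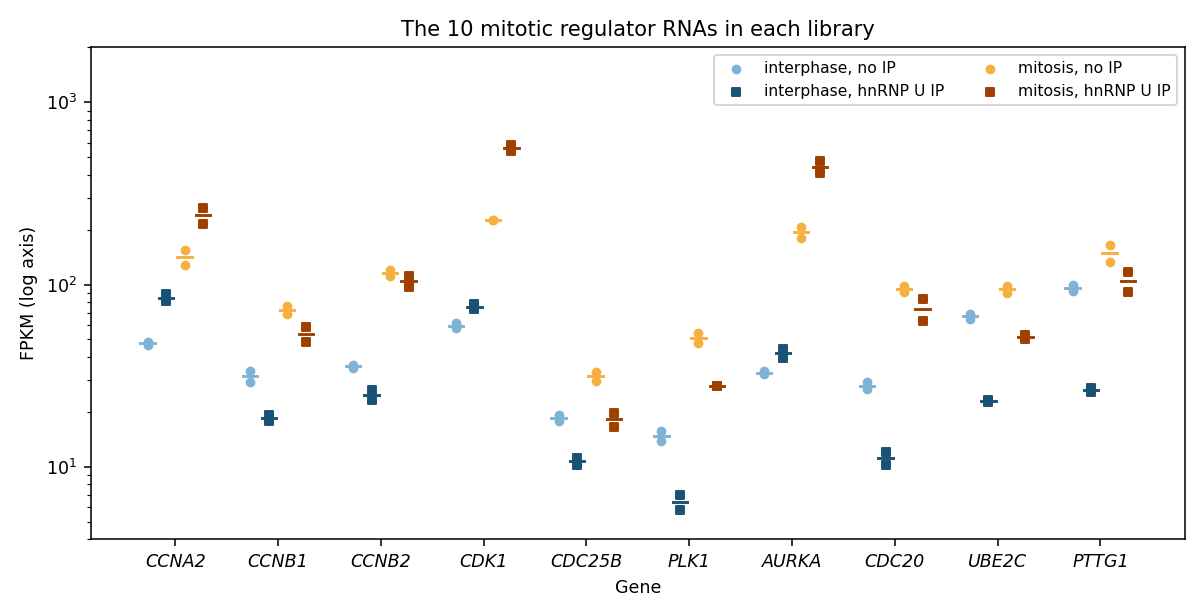
FPKM of the 10 genes in each of the 8 libraries (log axis), with circles for libraries without IP, squares for the hnRNP U IP and short lines for group means (n = 2). Every gene is higher in mitosis than in interphase, with and without IP, and the squares lie above the circles for CCNA2, CDK1 and AURKA and below them for the other 7 genes.

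The increase was largest for the mitotic kinase Aurora A. AURKA, on chromosome 20 (56369389 to 56392337, minus strand), had 33.4 and 32.3 FPKM in interphase and 179 and 207 FPKM in mitosis without IP. The mitotic libraries were thus 5.35 and 6.41 times the interphase libraries of the same number, with a log2 fold change of 2.52 (SE 0.13, limma adjusted p 3.56e-06). CDK1, on chromosome 10 (60778331 to 60794852), had 61.3 and 57.6 FPKM in interphase and 225 and 227 FPKM in mitosis. Its log2 fold change was 1.91 (SE 0.12, limma adjusted p 9.38e-06), and the mitotic libraries were close together. PLK1, the Polo-like kinase, on chromosome 16 (23677656 to 23690367), went from 13.9 and 15.6 to 54.4 and 47.7 FPKM. It had the lowest level of the 10 in interphase, and its log2 fold change was 1.72 (SE 0.12).

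Among the cyclins, CCNA2 on chromosome 4 (121816444 to 121823933, minus strand) had 48.6 and 46.5 FPKM in interphase and 129 and 155 FPKM in mitosis without IP. CCNB1 on chromosome 5 (69167010 to 69178245) had 33.7 and 29.1 FPKM in interphase and 68.8 and 76.2 FPKM in mitosis. CCNB2 on chromosome 15 (59105078 to 59125045) had 36.2 and 34.95 FPKM in interphase and 112 and 120.6 FPKM in mitosis. The B cyclins thus lay close together in interphase, with CCNB2 above CCNB1 in every library. Log2 fold changes were 1.55 for CCNA2, 1.18 for CCNB1 and 1.68 for CCNB2. EXOSC9, which is listed under the interval of CCNA2, had a mean of 13.6 FPKM in interphase and 12.3 FPKM in mitosis without IP, with no called change (log2 fold change -0.13, limma adjusted p 0.522).

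The phosphatase gene CDC25B, on chromosome 20 (3786772 to 3806121), changed less. It had 17.9 and 19.2 FPKM in interphase and 29.7 and 33.0 FPKM in mitosis, a log2 fold change of 0.72 (SE 0.12, limma adjusted p 0.00118). The APC/C genes, that is the activator CDC20, the enzyme UBE2C and the substrate PTTG1, split. CDC20, on chromosome 1 (43358955 to 43363203), had 26.6 and 29.1 FPKM in interphase and 90.5 and 98.3 FPKM in mitosis, a log2 fold change of 1.73. UBE2C on chromosome 20 (45812576 to 45816957) and PTTG1 on chromosome 5 (160421822 to 160428744) were already the most abundant of the 10 in interphase and rose least. This order did not hold with length and GC trends removed, where CDC25B had the smallest log2 fold change, 0.81, below UBE2C (0.91) and PTTG1 (1.04).

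UBE2C had 64.7 and 69.2 FPKM in interphase and 98.4 and 89.6 FPKM in mitosis without IP, a log2 fold change of 0.48 (SE 0.10, limma adjusted p 0.00378). PTTG1 had 99.995 and 92.3 FPKM in interphase and 132 and 165 FPKM in mitosis, a log2 fold change of 0.62 (SE 0.15, limma adjusted p 0.00902). The PTTG1 call rested on the second libraries. It was lost without the second interphase library without IP (adjusted p 0.0584) and without the second mitotic library without IP (adjusted p 0.0681). Of the annotated copies of PTTG1, 2 have rows of their own in the table, PTTG2 and PTTG3P.

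The order of the levels shifted with the phase. In interphase without IP it ran from PTTG1 (mean 96.2 FPKM, higher than 95.3% of genes in the table) through UBE2C, CDK1, CCNA2, CCNB2, AURKA, CCNB1, CDC20 and CDC25B to PLK1 (14.8 FPKM, higher than 69.5%). Of these neighbours, AURKA (32.3 to 33.4 FPKM) overlapped CCNB1 (29.1 to 33.7), and CCNB1 overlapped CDC20 only at its edge (26.6 to 29.1). In mitosis without IP, CDK1 and AURKA led with means of 226 and 193 FPKM, higher than 97.9% and 97.6% of genes. CDC20 and UBE2C, with means of 94.4 and 94.0 FPKM, overlapped there, as did PTTG1 and CCNA2.

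In interphase, 3 of the 10 RNAs were called higher and 7 lower in the hnRNP U IP than without IP, where 74.6% of all genes were called, 37.6% higher and 37.0% lower. The median log2 fold change of the IP was -0.73 over the 10 genes and 0.02 over all genes. That median of all genes moved to 0.14 when each library was centred on its median, which left the same 3 and 7 calls. Of all 13471 genes, 5778 were then called higher and 4499 lower. CCNA2, CDK1 and AURKA were higher in the IP. The cyclin B genes, the phosphatase, PLK1 and the 3 APC/C genes were lower, and IP and no-IP libraries did not overlap for any of the 10, nor for 87.3% of all genes.

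CCNA2 had 80.9 and 88.8 FPKM in the interphase IP, 1.67 and 1.91 times the libraries without IP of the same number. Its log2 fold change was 0.82 (SE 0.14, limma adjusted p 0.000681). CDK1 had 73.6 and 77.7 FPKM in the IP and AURKA had 39.5 and 44.3 FPKM. Both stood above their no-IP libraries by a smaller margin, with log2 fold changes of 0.34 for each (SE 0.12 for CDK1 and 0.13 for AURKA, limma adjusted p 0.0271 and 0.0408). These calls were fragile: both were lost without the first interphase library without IP, without the second, and without the second interphase IP library. The adjusted p then ranged from 0.0786 to 0.173. AURKA was also lost after quantile normalization (adjusted p 0.123), and CDK1 after removal of length and GC trends (log2 fold change 0.05, adjusted p 0.741).

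Securin had the most negative value. PTTG1 had 26.9 and 25.7 FPKM in the interphase IP, so the libraries without IP were 3.71 and 3.60 times higher, and its log2 fold change was -1.83 (SE 0.15, limma adjusted p 6.54e-06). UBE2C had 22.6 and 23.4 FPKM in the IP, a log2 fold change of -1.502 (SE 0.10, limma adjusted p 1.92e-06). CDC20 had 12.0 and 10.2 FPKM in the IP, a log2 fold change of -1.25 (SE 0.14, limma adjusted p 4.38e-05). PLK1 came next, with 6.98 and 5.78 FPKM in the IP and a log2 fold change of -1.10 (SE 0.12). This order did not hold with length and GC trends removed, where CCNB1 had -0.74, PTTG1 -0.71, CCNB2 -0.57 and PLK1 -0.38.

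CDC25B had 10.2 and 11.2 FPKM and CCNB1 had 19.3 and 17.8 FPKM in the interphase IP, with log2 fold changes of -0.74 and -0.73. CCNB2 had 23.3 and 26.2 FPKM in the IP and the smallest depletion, -0.51 (SE 0.11, limma adjusted p 0.0027). The cyclins therefore lay on both sides of 0, CCNA2 above it and CCNB1 and CCNB2 below it. With length and GC trends removed, 2 genes were called higher and 4 lower in place of 3 and 7. Of 13120 genes, 4423 were called higher and 3649 lower in that setting. CDC20 and CDC25B then changed sign to 0.25 and 0.19 without being called, and UBE2C kept its sign at -0.22 (adjusted p 0.0698).

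In mitosis the same 3 RNAs were higher in the IP and 6 were lower. Of all genes 64.5% were called here, 32.8% higher and 31.7% lower. The median log2 fold change of the IP was -0.40 over the 10 genes and 0.01 over all genes. CDK1 had 582 and 537 FPKM in the mitotic IP, 2.58 and 2.37 times the libraries without IP, and its log2 fold change was 1.30 (SE 0.12, limma adjusted p 2.6e-05). AURKA had 411 and 477 FPKM, close to 2.30 times the level without IP in each pair, and a log2 fold change of 1.20 (SE 0.13, limma adjusted p 6.25e-05). CDK1 and AURKA thereby exceeded 99.6% and 99.4% of all genes in the mitotic IP. CCNA2 had 215 and 264 FPKM, a log2 fold change of 0.75 (SE 0.14, limma adjusted p 0.00158). All 3 stayed higher with length and GC trends removed, at 0.82 for CDK1, 1.14 for AURKA and 0.39 for CCNA2.

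Among the 6 depleted RNAs, UBE2C had 53.0 and 50.1 FPKM in the mitotic IP and PLK1 had 27.7 and 27.8 FPKM, and both had a log2 fold change of -0.85 (SE 0.10 and 0.12). With length and GC trends removed these were -0.38 and -0.41, and CCNB1 had the most negative value, -0.67. CDC25B had 16.5 and 19.8 FPKM in the mitotic IP, a log2 fold change of -0.76 (SE 0.12, limma adjusted p 0.000486). In mitosis, too, IP and no-IP libraries did not overlap for any of the 10, nor for 81.5% of all genes.

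PTTG1 had 91.3 and 117 FPKM in the mitotic IP, a log2 fold change of -0.51 (SE 0.15, limma adjusted p 0.0158). CCNB1 had 48.5 and 58.6 FPKM, a log2 fold change of -0.43 (SE 0.13, limma adjusted p 0.0142). CDC20 had 63.5 and 83.0 FPKM, a log2 fold change of -0.37 (SE 0.14, limma adjusted p 0.0449). These 3 calls were the weakest. Without the first mitotic IP library the adjusted p was 0.109 for PTTG1, 0.0989 for CCNB1 and 0.298 for CDC20. Without the second mitotic library without IP it was 0.118, 0.0865 and 0.177. The CDC20 call was also lost when either interphase library without IP was left out (0.0616 and 0.0615), without the first mitotic library without IP (0.0776), after median centring (0.118) and when only the mitotic groups were fitted (0.0746).

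CCNB2 had 97.2 and 111 FPKM in the mitotic IP against 112 and 120.6 FPKM without IP. Its log2 fold change of -0.16 (SE 0.11, limma adjusted p 0.238) did not pass the threshold, although the libraries of the 2 groups did not overlap. With length and GC trends removed it was -0.37 with an adjusted p of 0.00826, while CDC20 changed sign to 0.26 (adjusted p 0.14) and PTTG1 and CDC25B were no longer called.

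Whether the effect of the IP differed between the phases was tested directly. It was larger in mitosis, meaning less depletion or more enrichment, for 5 of the 10 RNAs and smaller for none, while 47.1% of all genes had a called difference, 27.2% larger and 19.9% smaller. The 5 were PTTG1, CDK1, CDC20, AURKA and UBE2C. In the main fit they came from both sides: CDK1 and AURKA were enriched in both phases and more so in mitosis, whereas PTTG1, CDC20 and UBE2C were depleted in both and less so in mitosis. Some of these effects were fragile, as given above: the interphase calls of CDK1 and AURKA and the mitotic calls of PTTG1 and CDC20 were lost without single libraries. With length and GC trends removed, CDC20 had 0.25 in interphase and 0.26 in mitosis and CDK1 had 0.05 in interphase, none of them called. The median difference was 0.50 over the 10 genes and 0.07 over all genes.

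**Figure D2:**
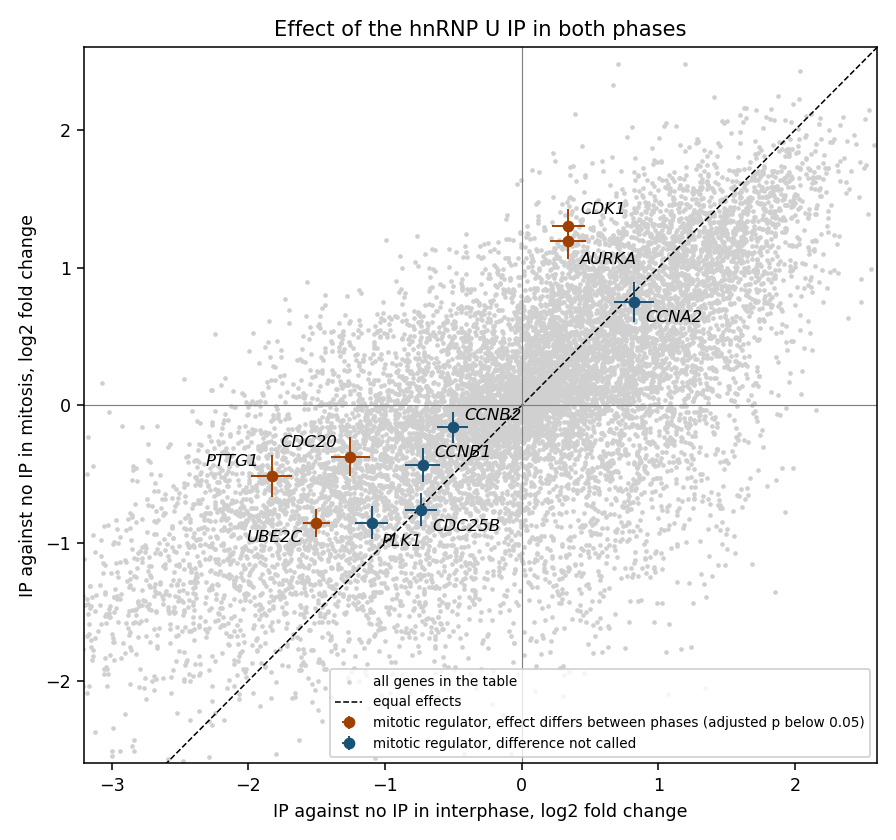
Log2 fold change of the hnRNP U IP in interphase (horizontal) and in mitosis (vertical) for all genes (grey, those beyond the axes not drawn) and the 10 mitotic regulators with SE bars from limma. PTTG1, CDC20, UBE2C, CDK1 and AURKA (brown) lie above the dashed line of equal effects and passed the test of the difference, and CCNA2, CCNB1, CCNB2, PLK1 and CDC25B (blue) lie nearer to it.

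PTTG1 showed the largest difference, 1.32 on the log2 scale (SE 0.22, limma adjusted p 0.00131), with 1.33 and 1.31 in the replicate pairs. For CDK1 the difference was 0.96 (SE 0.17, limma adjusted p 0.00182), with 1.11 and 0.82 in the pairs. For CDC20 it was 0.88 (SE 0.20, limma adjusted p 0.00706), and the pairs gave 0.58 and 1.19. AURKA had a difference of 0.86 (SE 0.18, limma adjusted p 0.00517) and UBE2C one of 0.65 (SE 0.14, limma adjusted p 0.00545). These 5 calls held without any single library.

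Removal of length and GC trends left 2 of the 5 calls, CDK1 (0.77, limma adjusted p 0.00567) and AURKA (0.55, limma adjusted p 0.0244). Of 13120 genes, 2920 were then called larger in mitosis and 2709 smaller. PTTG1 then had 0.56 (adjusted p 0.0659), CDC20 had 0.01 (adjusted p 0.976) and UBE2C changed sign to -0.16 (adjusted p 0.358). The differences of the other 5 genes did not pass the threshold. Their 95% intervals from the limma fit ran from -0.53 to 0.39 for CCNA2, from -0.40 to 0.36 for CDC25B, from -0.11 to 0.70 for CCNB1, from -0.01 to 0.70 for CCNB2 and from -0.14 to 0.63 for PLK1. An effect that is the same in both phases is inside each of these intervals, and so are differences of 0.36 or more. For CCNA2 the co-listed gene EXOSC9 moved otherwise, with a difference of -1.15 (SE 0.23, limma adjusted p 0.00349).

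In the IP libraries alone, all 10 RNAs were again higher in mitosis than in interphase, where 61.4% of all genes were called, 35.8% higher and 25.6% lower. Log2 fold changes ran from 0.71 for CDC25B to 3.37 for AURKA, with a median of 1.95 (0.08 over all genes, and -0.03 after median centring). AURKA went from 41.9 ± 3.41 to 444 ± 46.6 FPKM (mean ± SD, n = 2), CDK1 from 75.6 ± 2.93 to 559.8 ± 31.8 FPKM and CDC20 from 11.1 ± 1.30 to 73.2 ± 13.8 FPKM. This comparison shares its libraries with the comparisons above and is not independent of them.

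The 10 transcripts differ in length and base composition, properties with which the IP effect varied over the whole table. Their longest annotated transcripts (GENCODE 29) ran from 914 nt for UBE2C to 4135 nt for PLK1, with a median of 2208 nt against 3616 nt over 13120 matched genes. GC content ran from 37.0% for CDK1, 42.1% for CCNA2, 43.2% for CCNB1, 44.3% for CCNB2 and 46.6% for AURKA to 57.1% for PLK1, 57.9% for CDC20 and 59.3% for CDC25B. PTTG1 (49.3%) and UBE2C lay between them.

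**Figure D3:**
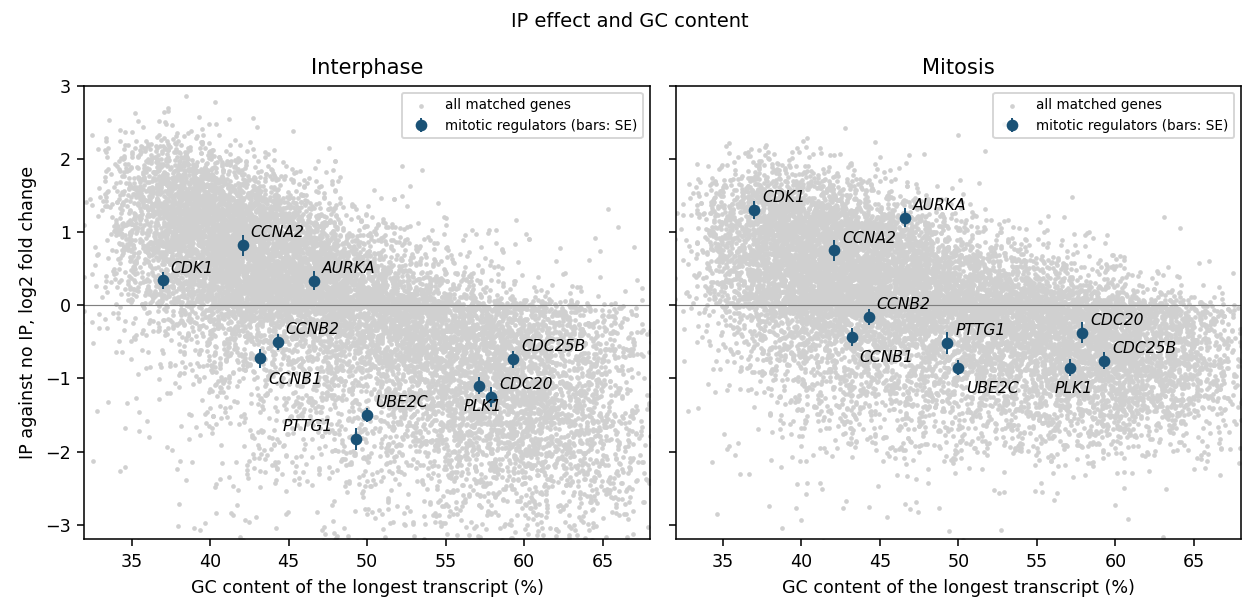
Log2 fold change of the hnRNP U IP (vertical) against the GC content of the longest annotated transcript in percent (horizontal), in interphase (left) and mitosis (right), for all matched genes (grey, those beyond the axes not drawn) and the 10 mitotic regulators (blue, with SE bars). CDK1, CCNA2 and AURKA, all below 47% GC, are the genes above 0, while CCNB1 and CCNB2 have similar GC content and lie below 0.

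Across the 10 genes the IP effect correlated with GC content at Spearman's rho of -0.71 in interphase and -0.70 in mitosis, against -0.71 and -0.56 over all matched genes. The difference between the phases correlated with length at -0.77 over the 10 genes and -0.47 over all matched genes, and with GC content at -0.08 and 0.42. The IP effect itself correlated with length at 0.47 in interphase and 0.04 in mitosis over the 10 genes, against 0.53 and 0.28 over all matched genes. These are descriptions over genes that share libraries, and no p is given. CCNB1 and CCNB2 had lower GC content than AURKA. In interphase both were depleted where AURKA was enriched, although that call of AURKA was fragile, as given above. Whether GC content accounts for any of these effects was not tested.

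The other genes of the pathway were followed in lists, counted over the same fit, and shares of all genes called in the same direction stand in parentheses. Of the 14 core subunits of the APC/C, the interphase IP held more of 4 (37.6% of all genes) and less of 4 (37.0%), and the mitotic IP more of 8 (32.8%) and less of 4 (31.7%). The difference between the phases was called larger in mitosis for 7 (27.2%) and smaller for none (19.9%), with a median of 0.59 (0.07 over all genes). The most positive was ANAPC11, the RING subunit, which was depleted less in mitosis (difference 1.49, SE 0.26, limma adjusted p 0.00196). In interphase it had 58.7 ± 5.85 FPKM without IP against 4.89 ± 0.33 FPKM in the IP, and in mitosis 44.7 ± 6.50 against 11.8 ± 3.58 FPKM (mean ± SD, n = 2). Without IP, 4 core subunits were higher in mitosis (26.2%), 2 lower (25.5%) and 8 not called.

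Of 9 partners and inhibitors of the APC/C, 5 had a larger (27.2%) and 2 a smaller (19.9%) IP effect in mitosis, with a median of 0.68. BUB1B, which encodes the checkpoint protein BUBR1, stood at the negative end. In interphase the IP held more of it, 24.1 ± 1.98 against 12.5 ± 2.39 FPKM, and in mitosis less, 35.6 ± 3.22 against 84.1 ± 0.711 FPKM. The difference of these effects was -2.13 (SE 0.19, limma adjusted p 9.23e-05). MAD2L1BP, the p31comet gene that helps to silence the checkpoint, stood at the positive end with a difference of 1.38 (SE 0.15). Without IP, 4 of the 9 were higher in mitosis (26.2%) and none lower (25.5%).

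Of 13 APC/C substrates other than the genes above, mitosis without IP had more of 9 (26.2%) and less of 2 (25.5%), and the median log2 fold change was 1.27. The IP effect was larger in mitosis for 3 (27.2%) and smaller for 5 (19.9%), and the median difference was -0.10 (0.07 over all genes). ANLN, the gene of the contractile ring protein anillin, had the most negative difference, -2.47 (SE 0.14, limma adjusted p 4.83e-05): it had 27.3 ± 0.0822 FPKM without IP and 77.2 ± 2.602 FPKM with IP in interphase, and 122 ± 3.16 and 60.5 ± 5.37 FPKM in mitosis. CDCA3 had the most positive, 1.94 (SE 0.20, limma adjusted p 0.000142), with 17.2 ± 2.79 and 3.53 ± 0.182 FPKM in interphase and 24.5 ± 1.10 and 23.5 ± 3.39 FPKM in mitosis.

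Of 13 regulators of the CDK1 switch, 7 were higher (26.2%) and 4 lower (25.5%) in mitosis without IP, and the IP effect was larger in mitosis for 5 (27.2%) and smaller for 3 (19.9%). CDC25C, the phosphatase that acts on CDK1 beside CDC25B, measured 3.00 ± 0.029 FPKM in interphase without IP against 2.30 ± 0.158 FPKM with it, and 6.17 ± 0.367 against 15.1 ± 0.0984 FPKM in mitosis. The IP effects differed by 1.45 (SE 0.16, limma adjusted p 0.000185), against -0.02 for CDC25B (SE 0.17, limma adjusted p 0.937). The difference between these 2 genes was not tested. WEE1, the kinase that inhibits CDK1, had the most negative difference in this list, -0.69 (SE 0.13, limma adjusted p 0.00251), which was not called with length and GC trends removed (-0.25, adjusted p 0.136).

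**Figure D4:**
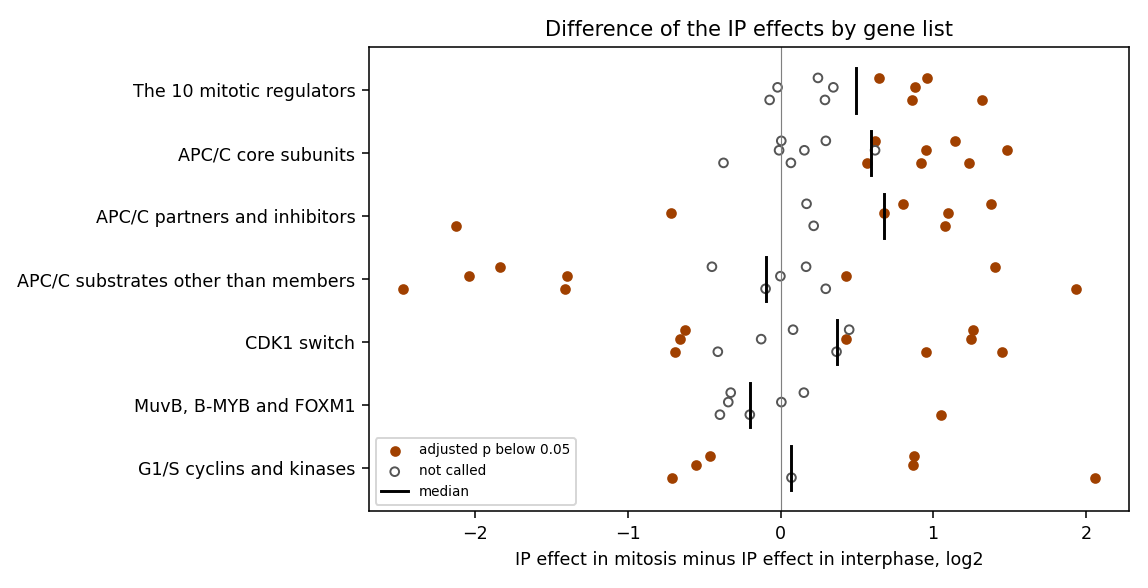
Difference of the hnRNP U IP effects, mitosis minus interphase, on the log2 scale (horizontal) for each gene of the 10 mitotic regulators and of the pathway lists (rows), with filled points for calls at an adjusted p below 0.05 and a line at each median. The 10 regulators and the APC/C core subunits have calls above 0 only, while the APC/C substrates reach from -2.47 (ANLN) to 1.94 (CDCA3).

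The genes whose 8 values, each centred on its own mean, lay nearest to the average profile of the 10 were CENPO, FANCA, CDKN3, QRICH1 and TNFAIP8L1. Their root mean square differences over the 8 libraries were 0.14 to 0.18 on the log2 scale. Among the 10 genes themselves CCNB2 lay nearest to that average (0.11) and AURKA farthest (0.84). CDKN3, which encodes a phosphatase of CDKs, had 95.6 ± 0.599 FPKM without IP and 54.4 ± 1.61 FPKM with IP in interphase, and 203 ± 11.2 and 183 ± 8.31 FPKM in mitosis. CENPO, which encodes a centromere protein, had 11.8 ± 0.204 and 6.81 ± 0.55 FPKM in interphase and 28.3 ± 0.544 and 32.3 ± 2.59 FPKM in mitosis.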

How the data were processed

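The 8 libraries hold RNA of hTERT-RPE1 cells in interphase or mitosis, with or without hnRNP U IP. The deposited values are FPKM made by the authors, per the file headers, in a table named for UCSC genes on hg38. The submitters' processing notes name hg38, TopHat and StringTie, without roles or versions. How shared reads and strand were counted is not given in the sources used here. The deposited ratio columns are the authors' quotients of FPKM columns and were recomputed with no difference beyond rounding. A separate lncRNA table was not used.

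Limma 3.58.1 in R 4.3.3 (lmFit, eBayes with trend) was fitted to log2(FPKM + 1) of all 13471 genes, with 1 coefficient per group over all 8 libraries, unfiltered and without a block for the replicate number. P-values (two-sided) were adjusted within each comparison by the Benjamini-Hochberg method, and the threshold was 0.05. The pseudocount understates changes of genes near 1 FPKM. The fit was tested on simulated data with independent noise in each library, so that test does not cover correlated libraries. The genes, lists and tests were chosen with earlier results of these data known. Named are the 10 genes, the called gene with the most positive and the one with the most negative difference of IP effects in each list, and the 5 genes nearest in profile with a mean of at least 1 FPKM. PTTG2, PTTG3P, EXOSC9 and ERN2 were added after the values were seen. GENCODE 29 matched 97.4% of genes by symbol or older symbol. Trends with length and GC content were fitted in each library with splines of 5 degrees of freedom. SGO1 is listed as SGOL1, and CCND2 was not listed among the genes measured.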

Additional observations from a re-analysis of the deposited data

Results flagged for a closer look

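The effect of the hnRNP U IP differed between interphase and mitosis for 5 of the 10 mitotic regulators, by the interaction test in limma. The log2 differences, mitosis minus interphase, were 1.32 for PTTG1 (adjusted p 0.00131), 0.96 for CDK1 (0.00182), 0.88 for CDC20 (0.00706), 0.86 for AURKA (0.00517) and 0.65 for UBE2C (0.00545). Both replicate pairs gave positive differences for each of these genes, and 47.1% of all genes in the table had a called difference in either direction, 27.2% larger in mitosis. With length and GC trends removed, 2920 of 13120 genes were called larger in mitosis and 2709 smaller. Of the 5 regulators, only CDK1 (0.77) and AURKA (0.55) were still called. PTTG1 (0.56), CDC20 (0.01) and UBE2C (-0.16) were not.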

How the results depend on the processing

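Each of the 10 genes kept its direction in all 5 comparisons wherever it was called, under a pseudocount of 0.1, a filter at a mean of 1 FPKM, median centring, quantile normalization and without any single library, and in the 4 comparisons of groups also in a fit of only those groups. Counts of called genes among the 10 ranged without single libraries from 8 to 10 for the IP in interphase, from 6 to 9 for the IP in mitosis, from 9 to 10 for mitosis against interphase without IP, and stayed at 5 for the difference of the IP effects and 10 for mitosis against interphase in the IP. The calls lost are named beside their values. Removal of length and GC trends left 6 of 10 calls in interphase and 2 of 5 for the difference, where 8072 and 5629 of 13120 genes were called. Under it the log2 fold change of the IP changed sign to 0.25 (CDC20), 0.19 (CDC25B), 0.13 (CDC25C), -0.53 (WEE1) and 0.27 (LIN37) in interphase and to 0.26 (CDC20) and 0.28 (MAD2L1BP) in mitosis, and the difference of UBE2C to -0.16. Of these reversed values, only those of WEE1 in interphase (limma adjusted p 0.000717) and MAD2L1BP in mitosis (limma adjusted p 0.0342) were called in the new direction. The cause was not tested. Over the whole table the number of called genes stayed within 1.5 times the reported one under every alternative run, but with length and GC trends removed only 5106 of 10051 calls for the IP in interphase, 5772 of 8694 in mitosis and 3826 of 6339 for the difference were shared with the same sign.

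With the replicate number as a block, the 10 genes had 10 calls in interphase, 9 in mitosis and 5 for the difference. Each comparison of the phases had 10, so the block changed none of the calls of these genes. Of all 13471 genes, 10374 were then called for the IP in interphase, 9099 for the IP in mitosis and 6913 for the difference. Between the phases, 7577 genes were called among the no-IP libraries and 8733 among the IP libraries. Deviations of same-numbered libraries correlated at 0.09 to 0.53 across genes, and no label says that a number marks a shared culture or day. With 2 libraries per group the lone library of a group left by an omission is assumed to vary like the other groups. The table gives no fragment counts, so counting error at low FPKM cannot be set apart from the spread between libraries.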

Other observations

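Further lists describe neighbouring steps of the cycle. One list holds 7 genes of the MuvB complex, B-MYB and FOXM1, which regulate transcription of G2 and mitotic genes. Of all genes, 26.2% were called higher in mitosis without IP and 25.5% lower. Of these 7 genes, 3 were higher and 1 lower, and their median log2 fold change was 0.28. The IP effect was larger in mitosis for 1 of them, LIN37, by 1.05 (SE 0.22, limma adjusted p 0.00468), and smaller for none, against 27.2% and 19.9% of all genes. With length and GC trends removed that difference was 0.11 (adjusted p 0.705). LIN37 was near the pseudocount, with 2.70 ± 0.179 FPKM without IP and 0.426 ± 0.137 FPKM with IP in interphase and 0.987 ± 0.458 and 0.565 ± 0.117 FPKM in mitosis (mean ± SD, n = 2).

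Of 7 measured cyclins and kinases of the G1/S transition, mitosis without IP had more of 2 and less of 3, against 26.2% and 25.5% of all genes, and the median log2 fold change was -0.09. CDK4, a G1 kinase, fell in the interphase IP from 135 ± 10.6 to 28.9 ± 4.46 FPKM and had 83.6 ± 10.4 and 76.5 ± 11.2 FPKM without and with IP in mitosis. Its difference of IP effects was 2.06 (SE 0.22, limma adjusted p 0.000179), above that of any of the 10 mitotic regulators. CCND1, the gene of cyclin D1, had 197 ± 17.3 and 222 ± 1.22 FPKM in interphase and 272 ± 4.39 and 187 ± 8.34 FPKM in mitosis, a difference of -0.71 (SE 0.19, limma adjusted p 0.0145). That call was lost without the first mitotic library without IP (adjusted p 0.0526) and without the second interphase library without IP (0.0724).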
